A study of Mus musculus with 56 samples.

Results

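Inwardly rectifying potassium channels pass potassium more readily into a cell than out of it and so hold the resting membrane potential near the potassium equilibrium. Transcripts of 7 genes of this family, Kcnj2, Kcnj3, Kcnj4, Kcnj6, Kcnj9, Kcnj10 and Kcnj16, were followed in 2 brain regions of inbred mice. Every probe set whose annotation names 1 of these symbols and no other was taken, which gave 18 of the 44951 probe sets that are not controls (7 of 18182 named genes). Prefrontal cortex of 29 inbred strains was arrayed, and for 27 of these strains nucleus accumbens too, a ventral striatal region of reward circuits. Each of the 56 one-colour oligonucleotide arrays held RNA pooled from 3 males of 1 strain aged 8 to 10 weeks, with no treatment named, and the tissue came from adjoining brain slices of the same animals. MRL/MpJ and NZO/HILtJ had no accumbens array here, which leaves 54 arrays of 27 strains for comparing the regions. A strain therefore has 1 pool per region, n is the number of strains, and the p-values measure the spread between these pools.

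The family divides by partner and cell type. Kcnj3, Kcnj6 and Kcnj9 encode Kir3.1, Kir3.2 and Kir3.3, the subunits of the GIRK channels of neurons, which open when the beta and gamma subunits of Gi/o proteins bind them after a receptor for GABA, dopamine, opioids, adenosine or serotonin is engaged. Kcnj2 and Kcnj4 encode Kir2.1 and Kir2.3, strong rectifiers that keep neurons such as striatal medium spiny neurons hyperpolarised between bursts. Kcnj10 and Kcnj16 encode Kir4.1 and Kir5.1, channels of glia, and Kir4.1 carries the uptake of the potassium that neurons release. Kcnj9 has been studied as a candidate gene for sedative withdrawal in mice and lies next to Kcnj10 on chromosome 1.

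Of the 18 probe sets, 7 passed the filter (log2 intensity above 5 on at least 13 of the 54 paired arrays): 3 of 4 for Kcnj3, 2 of 4 for Kcnj9, and the only ones for Kcnj4 and Kcnj10. None of the probe sets of Kcnj2, Kcnj6 and Kcnj16 passed. Differences between regions were tested with limma with strain as a block, and p-values were adjusted by the Benjamini-Hochberg method over all 16056 probe sets kept, at a threshold of 0.05. Of the 7, 6 were lower in accumbens (31.5% of all probe sets kept were) and 1 was higher (51.8% were). The shares over all probe sets depend on the scaling: 39.4% were lower and 42.6% higher after quantile normalization across all arrays, and 40.6% and 41.5% after centring each array. In 4 of the 7 every accumbens array lay below every cortex array (4.73% of all probe sets kept did so). Of these 4, 3 had an accumbens mean below log2 5 and were above it on 0 or 1 of 27 accumbens arrays: they entered the test through cortex alone and had to differ, so the counts are a description. The strains differed in 2 of the 7 (20.1% of all probe sets kept), 1 for Kcnj9 and 1 for Kcnj10. The strain spread of the Kcnj9 probe set was known from these data when the genes were chosen, so this count is a description too.

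The arrays were checked against the defining genes of the cells the tissue should hold. Medium spiny neuron genes (13 of 15 listed passed the filter, all 13 higher in accumbens, 6 of them with a cortex mean below log2 5) had a mean log2 level of 6.999 to 10.45 in accumbens and of 5.15 to 9.25 in cortex, where the median array was at 5.27. The highest cortex value, 9.25, was that of the array labelled MA/MyJ cortex, whose cortical excitatory neuron genes were at 8.15, so this array holds both kinds of transcript and goes against its label. The lowest accumbens values were 6.999 in BALB/cByJ, 8.63 in NON/LtJ and 8.95 in CE/J. Cortical excitatory neuron genes were at 8.15 to 8.84 in cortex and 4.84 to 6.30 in accumbens. Of the 12 listed, 10 passed, 9 lower and 1 higher in accumbens, and 6 of the 9 had an accumbens mean below log2 5. Astrocyte genes (14 of 14 passed, 5 higher and 5 lower in accumbens) were at 8.63 to 9.00 in cortex and at 8.14 to 9.32 in accumbens, highest in BALB/cByJ. Results are therefore given also without 5 strains with an array low or mixed in striatal genes (MA/MyJ, BALB/cByJ, CE/J, NON/LtJ and WSB/EiJ) where that matters. The log2 difference between 3′ and 5′ actin control probe sets, a sign of RNA integrity, was 1.74 ± 0.27 in cortex and 1.92 ± 0.18 in accumbens (SD, n = 27), and its part in the results was not tested. In such bulk tissue, fewer cells of a type and less RNA per cell cannot be told apart. By their highest and lowest values, the regions were also normalized separately, an effect that cannot be told apart from that of region; the median probe set was 0.13 log2 units higher in accumbens (0.02 after quantile normalization across all arrays).

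Kcnj3, whose Kir3.1 subunit is the usual partner in GIRK channels, was far lower in accumbens. Its brightest probe set (1455374_at) had a log2 intensity of 8.55 to 9.21 on cortex arrays, with a median of 9.00, and of 4.77 to 7.17 on accumbens arrays, with a median of 5.66. The 2 ranges did not overlap, and the cortex arrays lay far closer together than the accumbens arrays (SD 0.14 against 0.55, n = 27). The mean fell from 8.99 ± 0.14 to 5.82 ± 0.55 (SD, n = 27), a difference of -3.17 (SE 0.10) or 9.02-fold, in 27 of 27 strains (limma with strain as a block, adjusted p = 9.73e-23). The smallest decrease was that of NOD/LtJ, -1.93, and the largest that of C58/J, at least 3.97 log2 units when its accumbens reading of 4.77 is set to log2 5, the level of the filter. The other Kcnj3 probe sets above the filter passed it through cortex alone, so their lower accumbens readings are a description. Probe set 1444025_at was at 5.96 ± 0.35 in cortex and 4.04 ± 0.34 in accumbens (SD, n = 27), at least 1.94-fold lower against log2 5, with 1 accumbens array above that level. Probe set 1421468_at was at 5.38 ± 0.31 and 3.74 ± 0.20, at least 1.30-fold lower, with 0 accumbens arrays above it. The 4th Kcnj3 probe set (1444336_at) never exceeded 3.71 in either region.

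**Figure D1:**
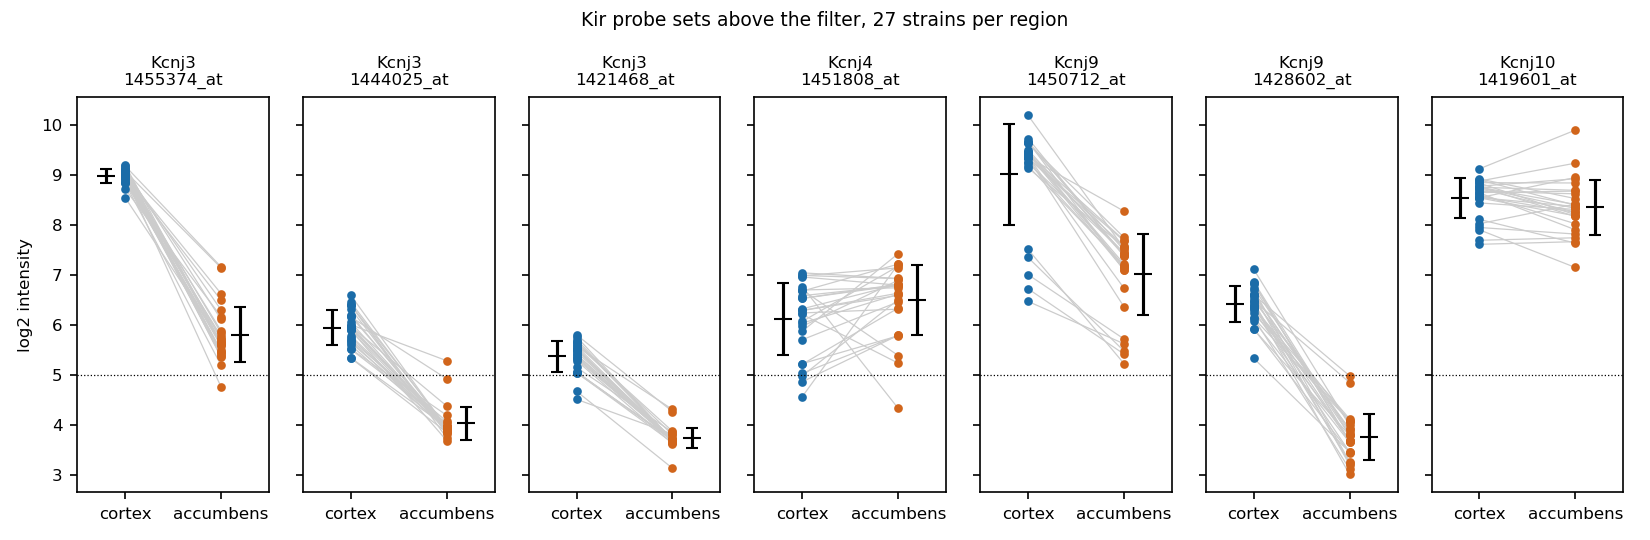
Log2 intensity (y axis) in prefrontal cortex and nucleus accumbens for the 7 probe sets above the filter; each point is 1 pool of 1 strain, grey lines join the regions of a strain, black bars are mean ± SD (n = 27) and the dotted line is the filter at log2 5. Kcnj3 and Kcnj9 fall in every strain, Kcnj10 changes little, and the Kcnj4 lines cross.

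The strain means of Kcnj3 spanned 1.31 log2 units on the brightest probe set, from 6.87 in C58/J to 8.18 in P/J (adjusted p = 0.353, limma F test over strains). None of the 26 gaps between neighbours in that order exceeded 0.72, which is 2 SE of a difference between strain means. Among accumbens arrays alone, P/J (7.17), NOD/LtJ (7.15), CE/J (6.63) and BUB/BnJ (6.50) were the highest. Across strains, Kcnj3 in accumbens rose with the mean of the cortical excitatory neuron genes (Pearson r = 0.64, permutation p = 0.00102, adjusted 0.0109 over 64 relations, n = 27). Spearman's rho was 0.38 (permutation p = 0.0546, adjusted 0.349), and r was 0.51 without the 2 arrays farthest from the median of the gene list. P/J, NOD/LtJ and BUB/BnJ, at 5.71, 6.30 and 6.10 in that list, were among the 4 highest arrays in it, while CE/J, at 5.02, was at its median. Kcnj3 in accumbens also correlated with the interneuron genes (r = 0.51, permutation p = 0.00677, adjusted 0.0481; rho 0.46, adjusted 0.184; 0.50 without the 2 farthest). Without 9 strains with an array that stands apart in striatal or cortical genes, P/J, NOD/LtJ and BUB/BnJ among them, the regional difference of Kcnj3 was -3.44.

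Kcnj9 encodes Kir3.3, a GIRK subunit that is found in the brain and modifies the channels it joins. Its brightest probe set (1450712_at) had a log2 intensity of 6.48 in MA/MyJ to 10.20 in SWR/J in cortex, with a median of 9.37, and of 5.24 in C57BL/6J to 8.29 in BALB/cByJ in accumbens, with a median of 7.23. The ranges overlapped because some strains were low in both regions, but within each strain accumbens was lower. The mean was 9.02 ± 1.01 in cortex and 7.02 ± 0.82 in accumbens (SD, n = 27), a difference of -1.999 (SE 0.09) or 3.997-fold, in 27 of 27 strains (limma with strain as a block, adjusted p = 1.65e-18). The decrease ran from -0.85 in MA/MyJ, whose cortex array is the mixed one, to -2.98 in C3H/HeJ. The other Kcnj9 probe set above the filter (1428602_at) was at 6.43 ± 0.36 in cortex and 3.77 ± 0.45 in accumbens (SD, n = 27), at least 2.69-fold lower. It was above log2 5 on 0 of 27 accumbens arrays and so passed the filter through cortex alone, and the difference is a description. The remaining pair, 1426115_a_at and 1433029_at, stayed below log2 5 on all arrays.

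The 27 strains fell into 2 sets in the level of probe set 1450712_at. In cortex it was at 6.48 in MA/MyJ, 6.73 in BTBR T+ tf/J, 7.02 in C57BR/cdJ, 7.36 in I/LnJ and 7.52 in C57BL/6J, and at 9.15 (BUB/BnJ) or above in the other 22. In accumbens the same 5 strains were the lowest, at 5.63, 5.43, 5.73, 5.49 and 5.24 in that order, and the next was C3H/HeJ at 6.37. By the mean of both regions the order began with MA/MyJ (6.06), BTBR T+ tf/J (6.08), C57BR/cdJ (6.37), C57BL/6J (6.38) and I/LnJ (6.42). A gap of 1.44 separated I/LnJ from C3H/HeJ (7.87), and it was the only one of the 26 gaps above 0.67, 2 SE of a difference between strain means. From C3H/HeJ up to SWR/J (8.87) no neighbours differed beyond that error. The cortex-only strains had 9.33 (MRL/MpJ) and 9.59 (NZO/HILtJ), with the upper set. The strain spread of this probe set was already known from these data when the genes were chosen, so it is given as a description; its span of 2.82 compares with a median span of 0.79 over all probe sets kept. Without the 5 strains with an array low or mixed in striatal genes the span was 2.79.

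**Figure D2:**
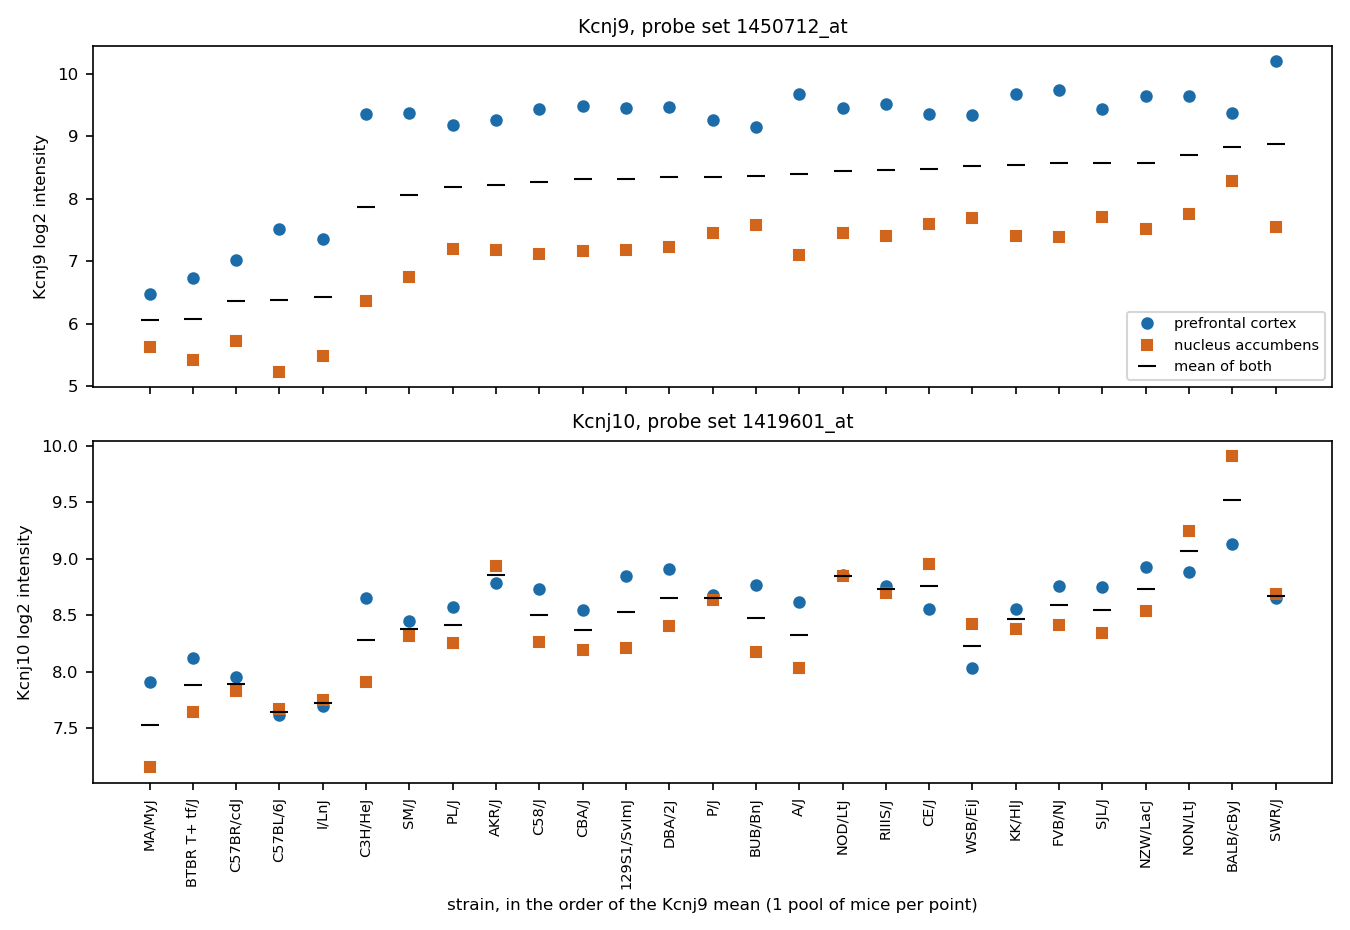
Log2 intensity (y axes) of Kcnj9 (probe set 1450712_at, top) and Kcnj10 (1419601_at, bottom) in the 27 strains with both regions, in the order of the Kcnj9 mean; circles are cortex, squares accumbens, dashes the mean of both, and each point is 1 pool. The first 5 strains are low in both regions for Kcnj9 and hold the 5 lowest means of Kcnj10.

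The second Kcnj9 probe set did not show these 2 sets of strains. In cortex, where it was above the filter, 1428602_at read 6.24 in MA/MyJ, 7.12 in BTBR T+ tf/J, 6.71 in C57BR/cdJ, 6.39 in C57BL/6J and 6.60 in I/LnJ, within a range of 5.34 (C58/J) to 7.12. BTBR T+ tf/J, next to lowest by the first probe set, was thus the highest by the second. None of the 5 strains was among the 5 lowest in cortex or by the mean of both regions, and the strain test did not pass (span 1.39, adjusted p = 0.259), though its accumbens readings, all below log2 5, enter that test. In cortex the 2 probe sets thus gave different orders of strains. Which of the 2 follows the transcript across strains was not tested.

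Kcnj10, which encodes the astrocytic channel Kir4.1, had nearly the same level in both regions. Probe set 1419601_at read 7.62 to 9.13 in cortex, with a median of 8.66, and 7.16 to 9.91 in accumbens, with a median of 8.34. The ranges overlapped almost wholly. The mean was 8.55 ± 0.39 in cortex and 8.36 ± 0.55 in accumbens (SD, n = 27), a difference of -0.18 (SE 0.07) or 1.13-fold, with 19 of 27 strains lower in accumbens (limma with strain as a block, adjusted p = 0.0204). The 8 strains that went the other way included BALB/cByJ (0.77), CE/J (0.41), WSB/EiJ (0.39) and NON/LtJ (0.36), all with arrays low in striatal genes. Without those 4 and MA/MyJ the difference was -0.28 (adjusted p = 5.08e-05), and it was -0.31 after centring each array and -0.42 with the oligodendrocyte genes as a covariate. With the mean of the astrocyte genes as a covariate it was 0.070 (adjusted p = 0.193), of the opposite sign. Without the strain block the difference did not pass (adjusted p = 0.185).

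Kcnj10 also differed between strains. The lowest strain means were MA/MyJ (7.53), C57BL/6J (7.65), I/LnJ (7.73), BTBR T+ tf/J (7.88) and C57BR/cdJ (7.89), followed by WSB/EiJ (8.23) and C3H/HeJ (8.28), and the highest were NON/LtJ (9.07) and BALB/cByJ (9.52). The span was 1.98 log2 units (limma F test over strains, adjusted p = 1.55e-04), against a median of 0.79 over all probe sets kept. Kcnj10 was among the genes chosen with earlier results of these data known, so this test is a description. No single gap exceeded 0.53, 2 SE of a difference between strain means, and the largest, 0.45, lay below BALB/cByJ. Without the 5 strains with an array low or mixed in striatal genes, which include both ends of the order, the span was 1.21 and still passed (adjusted p = 1.01e-04). Over all 27 strains the cortex and accumbens values correlated at r = 0.72 (permutation p = 1e-05, the smallest that 100000 draws can give, adjusted 7e-05 over 7 probe sets, n = 27), with rho = 0.66 (p = 3e-04) and r = 0.70 without the 2 farthest strains. This rests on the 5 lowest strains and BALB/cByJ. Over the 22 strains above the 5 lowest, BALB/cByJ included, r was 0.46 (permutation p = 0.0423, adjusted 0.296 over 7; rho 0.39; 0.32 without the 2 farthest), and without BALB/cByJ too it was 0.24 (permutation p = 0.303). For Kcnj9 (1450712_at) over the same 22 strains it was 0.11 (permutation p = 0.617); a value over all 27 would rest on the gap. None of the 7 probe sets passed over these 22 strains, a set of strains chosen after the data were seen, and whether Kcnj10 differed from the others in this was not tested.

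The 5 strains lowest in Kcnj9 by probe set 1450712_at, which stands for Kcnj9 from here on, were also the 5 with the lowest Kcnj10. This held for the mean of both regions and for accumbens alone, and in cortex it held for 4 of the 5, WSB/EiJ (8.03) taking a place before BTBR T+ tf/J (8.12). No other probe set of the family had more than 3 of them among its 5 lowest means. The second Kcnj9 probe set, 1428602_at, had 0. The cortex-only strains were high in Kcnj10 as in Kcnj9, with 9.14 in MRL/MpJ and 8.83 in NZO/HILtJ. Both genes are neighbours on chromosome 1, on opposite strands and pointing away from each other, their start sites 11888 bases apart in the RefSeq annotation of GRCm38.p6. That assembly is of C57BL/6J, a strain of the low set. For both genes the 250 bases before the start site are shown, 5′ to 3′ on the strand of the gene. Matches to the motifs searched are in capitals. Whether this sequence has a part in the level of either gene was not tested.

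Kcnj9 (chr1:172329323-172329572, minus strand): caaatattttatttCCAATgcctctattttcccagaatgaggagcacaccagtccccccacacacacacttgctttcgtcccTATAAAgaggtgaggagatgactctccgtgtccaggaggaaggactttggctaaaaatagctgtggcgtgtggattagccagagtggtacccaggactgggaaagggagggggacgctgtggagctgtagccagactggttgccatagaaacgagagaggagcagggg
Kcnj10 (chr1:172340960-172341209, plus strand): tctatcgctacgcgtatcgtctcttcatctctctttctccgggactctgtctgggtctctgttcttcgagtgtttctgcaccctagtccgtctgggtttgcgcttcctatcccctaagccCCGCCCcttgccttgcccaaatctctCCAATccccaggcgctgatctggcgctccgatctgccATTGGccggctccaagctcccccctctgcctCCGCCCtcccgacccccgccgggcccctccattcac

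The motifs searched on both strands were the CCAAT box, the TATA box TATAAA, the GC box GGGCGG, the E-box CACGTG and the cyclic AMP response element TGACGTCA. The Kcnj9 stretch held 1 CCAAT at -236 and 1 TATAAA at -168 from the start site, and 52% of its bases were G or C. The Kcnj10 stretch held CCAAT at -104 and, on the opposite strand, at -67, and GGGCGG on the opposite strand at -130 and -36, with 62% G or C. The 2 stretches shared CCAAT alone. Of the 32851 promoters in the table, 33.8% held CCAAT, 12.4% TATAAA, 32.7% GGGCGG, 6.02% CACGTG and 1.55% TGACGTCA in the same 250 bases, and their median G or C content was 52.4%. These are matches of letters and not sites, and no strain's own sequence was used.

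Beyond the 5 low strains the 2 genes were correlated in accumbens, while the same correlation did not pass in cortex. Over the upper 22 strains in accumbens, Kcnj9 ran from 6.37 in C3H/HeJ to 8.29 in BALB/cByJ while Kcnj10 ran from 7.91 to 9.91 in the same 2 strains. The correlation was r = 0.73 (permutation p = 2.9e-04, adjusted 0.00348 over the 12 pairs and regions computed) with rho = 0.63 (p = 0.00186). It dropped to 0.47 without the 2 strains farthest from the Kcnj9 median, to 0.50 without the strains with arrays low or mixed in striatal genes (unadjusted permutation p = 0.0331), and to 0.43 given the oligodendrocyte and astrocyte genes (p = 0.0471). In cortex the same correlation was 0.082 (permutation p = 0.694, adjusted 0.757), with rho = 0.14 and 0.15 without the 2 farthest. The difference between the regions in this correlation was not tested.

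**Figure D3:**
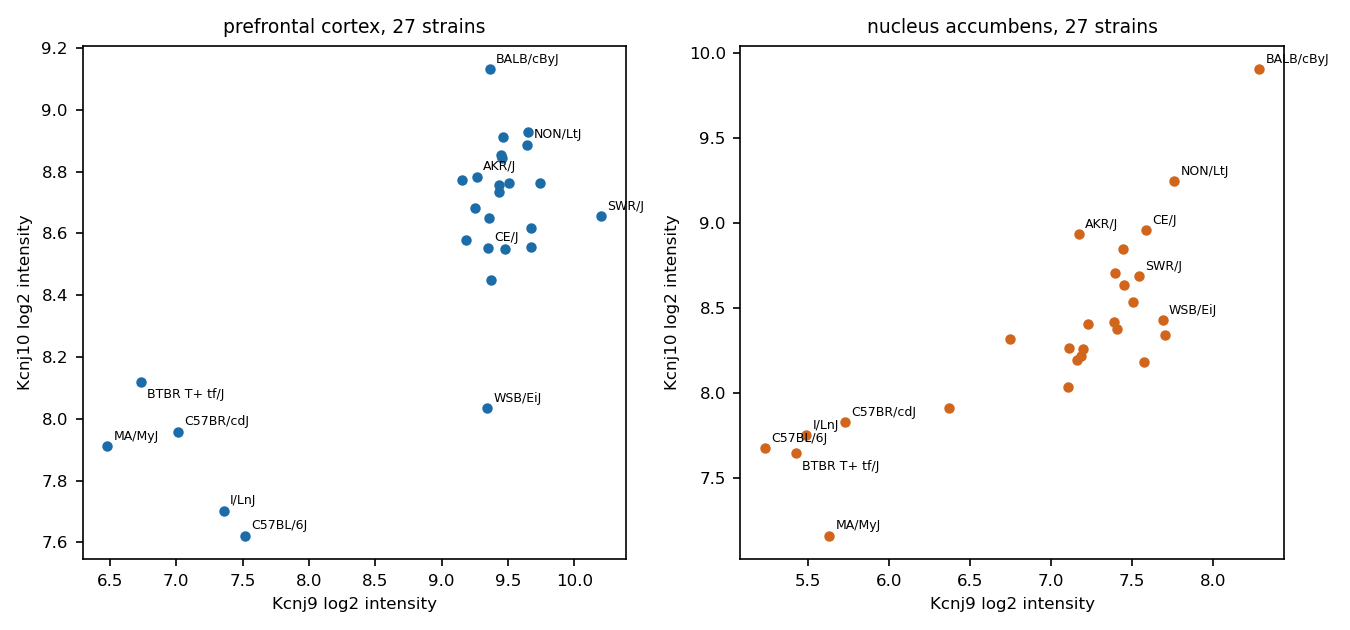
Kcnj9 (1450712_at, x axis) against Kcnj10 (1419601_at, y axis), both in log2 intensity, for 27 strains in each region; each point is 1 pool and some strains are named. MA/MyJ, BTBR T+ tf/J, C57BR/cdJ, C57BL/6J and I/LnJ sit apart at the lower left in both panels, and within the other 22 the points rise together in accumbens (r = 0.73) and form a cloud in cortex (r = 0.082).

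Among all named genes with a probe set above the filter, none resembled Kcnj9 across strains as Kcnj10 did. Over the 27 strain means Kcnj10 had the highest correlation with Kcnj9 of 8810 genes (r = 0.85), and Kcnj9 the highest with Kcnj10. The next most like Kcnj9 were Snapc4 (0.75), Fads1 (0.73), Cbln2 (0.71) and Nol4 (0.71), and for Kcnj10 they were Fads1 (0.83), Cbln2 (0.82), Cul7 (0.81) and Fabp7 (0.77), a fatty acid binding protein of astrocytes. These values describe the strain order and carry no test. They rest largely on the 5 low strains: over the other 22 the correlation of Kcnj10 with Kcnj9 was 0.58, which ranked 273 of the 8810. The genes most opposite to Kcnj9 were Copa (-0.77), Ufc1 (-0.71) and Ap5s1 (-0.67), and those most opposite to Kcnj10 were Bcl11b (-0.75), Agfg2 (-0.74) and Gnb5 (-0.74), the last a G protein subunit that pairs with RGS proteins. By the limma F test over strains, Fads1, Cbln2, Cul7 and Nol4 did not pass (adjusted p = 0.887, 0.722, 0.727 and 0.0566). Copa, Ap5s1, Bcl11b, Agfg2 and Gnb5 did not pass either, while Snapc4, Fabp7 and Ufc1 did (adjusted p = 0.0161, 0.0317 and 0.00669). For the genes that did not pass, a strain order is not established.

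**Figure D4:**
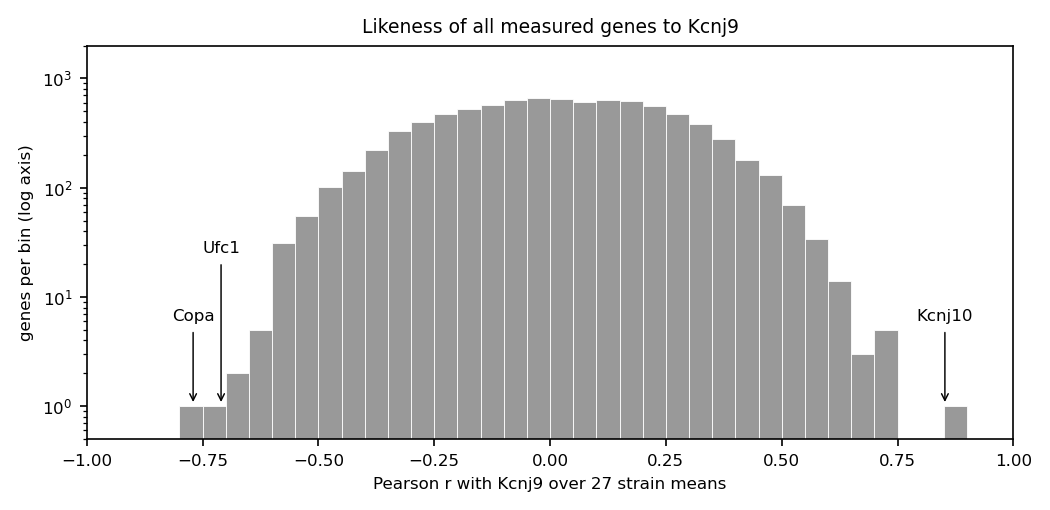
Number of genes (y axis, log scale) by their Pearson correlation with Kcnj9 (1450712_at) over the 27 strain means (x axis, bins of 0.05). Kcnj10, at 0.85, stands alone beyond the next gene at 0.75, and Copa and Ufc1, on the same chromosome, are the 2 lowest.

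Copa, a subunit of the coatomer of transport vesicles, is the 8th protein-coding gene from Kcnj9 on the side away from Kcnj10, and Ufc1, the conjugating enzyme of the UFM1 pathway, is the 31st. For each, 4 of the 5 low-Kcnj9 strains were among its 5 highest strain means, with BTBR T+ tf/J the highest for both. Both genes were picked for their opposite order to Kcnj9 over these strain means, so this placing largely follows from the choice. Copa spanned 0.53 log2 units (limma F test, adjusted p = 0.107) and Ufc1 0.77 (adjusted p = 0.00669). Of the 20 nearest genes with a probe set above the filter, 10 on each side of the pair, strains differed in 6 (30%, against 18.8% of all named genes). These were Pex19, Nit1 and Ufc1 on the Kcnj9 side and Ackr1, Rgs7 and Adss on the Kcnj10 side. The 20 neighbours lay 1 (Igsf8) to 31 (Ufc1) genes from Kcnj9 and 20 (Ackr1) to 66 (Adss) genes from Kcnj10. Genes nearer to Kcnj10 on that side are therefore not covered. Igsf8, the next gene after Kcnj9, spanned 0.46 from 8.68 in AKR/J to 9.13 in C57BR/cdJ and did not pass (adjusted p = 0.319). None of the 20 neighbours had more than 3 of the 5 strains among its lowest. Ackr1 was highest in C57BL/6J (8.07) and lowest in NON/LtJ (7.04), and 3 of the 5 strains were among its 5 highest.

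Kcnj4, which encodes Kir2.3, was the only probe set of the family called higher in accumbens. The call held in 5 of 13 alternatives other than leaving out 1 strain at a time. Probe set 1451808_at read 4.58 in C3H/HeJ to 7.05 in P/J in cortex, with a median of 6.30, and 4.34 in BALB/cByJ to 7.43 in BUB/BnJ in accumbens, with a median of 6.75. Both regions spread widely and overlapped. The mean was 6.13 ± 0.72 in cortex and 6.51 ± 0.71 in accumbens (SD, n = 27), a difference of 0.37 (SE 0.17) or 1.30-fold, higher in 21 of 27 strains (limma with strain as a block, adjusted p = 0.0474). Accumbens was lower by at least 1.77 log2 units in BALB/cByJ (accumbens reading set to log2 5) and differed by -1.31 in SWR/J. It was higher by 1.55 in BUB/BnJ and by at least 2.22 in C3H/HeJ, whose cortex reading was set to log2 5. It did not pass when 1 of 19 of the 27 strains was left out (lowest 0.29 without C3H/HeJ, adjusted p = 0.0948), and it was 0.24 after quantile normalization across regions (adjusted p = 0.193). The strain means spanned 1.73, from 5.34 in CE/J to 7.07 in RIIIS/J (adjusted p = 0.341), and no gap exceeded the error between neighbours.

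In accumbens, Kcnj4 was correlated with the medium spiny neuron genes by Pearson's r, and not by rank. It was lowest in BALB/cByJ (4.34), the array lowest in those genes, and also low in KK/HlJ (5.24) and SWR/J (5.40), whose medium spiny neuron genes were at 10.19 and 10.00, near the median of 10.17. Kcnj4 correlated with the list at r = 0.70 (permutation p = 9e-04, adjusted 0.0109 over 64 relations, n = 27), with rho = 0.41 (p = 0.034, adjusted 0.286) and r = 0.35 without the 2 farthest arrays. With the astrocyte genes Kcnj4 was at -0.57 (permutation p = 0.00304, adjusted 0.0243; rho -0.36, adjusted 0.385; -0.22 without the 2 farthest). Kcnj10 was at -0.72 with the medium spiny neuron genes (adjusted 6.4e-04) and 0.74 with the astrocyte genes (permutation p = 2e-05, adjusted 6.4e-04); rho was -0.60 and 0.68 (adjusted 0.0186 and 0.00416), and without the 2 farthest arrays r was -0.40 and 0.52. Kcnj9 over its upper 22 strains was at -0.73 with the medium spiny neuron genes and 0.65 with the astrocyte genes (permutation p = 2.4e-04 and 0.00159, adjusted 0.00384 and 0.0145). Its rho was -0.75 and 0.62 (adjusted 0.00416 and 0.033), and r was -0.54 and 0.40 without the 2 farthest. With the interneuron genes Kcnj9 was at 0.69 (permutation p = 2.1e-04, adjusted 0.00384; rho 0.67, adjusted 0.0186; 0.63 without the 2 farthest). No relation with a marker list passed in cortex. The part of cell content in the levels of these genes was not tested beyond the covariates and left-out strains given.

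**Figure D5:**
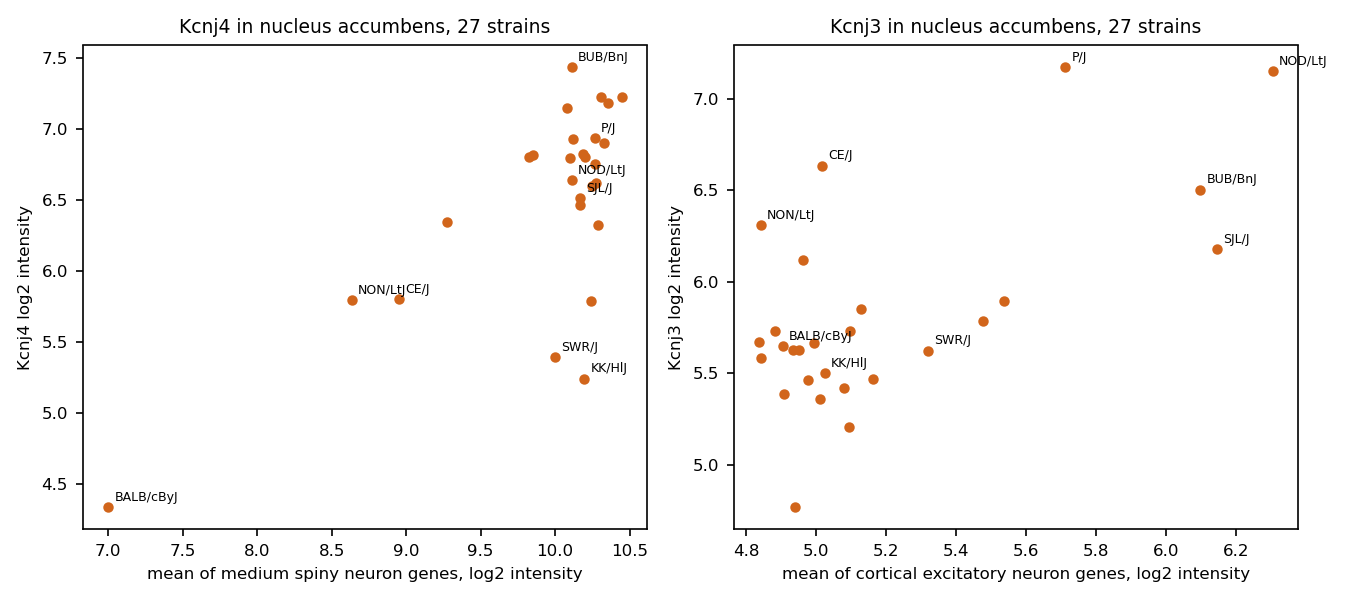
Accumbens log2 intensity of Kcnj4 (1451808_at, left) against the mean of medium spiny neuron genes, and of Kcnj3 (1455374_at, right) against the mean of cortical excitatory neuron genes; each point is 1 pool of 1 of 27 strains. BALB/cByJ is lowest on both axes on the left (6.999 and 4.34), and P/J, NOD/LtJ and BUB/BnJ are among the highest on both axes on the right.

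In accumbens, Kcnj4 was negatively correlated with Kcnj10 and with Kcnj9 by Pearson's r over the strains used, and not by rank. It correlated with Kcnj10 at -0.54 (permutation p = 0.00542, adjusted 0.0325 over the 12 relations among the 4 genes above the filter and 0.0455 over the 42 among all 7 genes; rho -0.35, adjusted 0.216; -0.32 without the 2 farthest, n = 27). With Kcnj9 it was at -0.55 over 22 strains (permutation p = 0.0102, adjusted 0.0406 over 12; rho -0.34, adjusted 0.239; -0.33 without the 2 farthest), and it did not pass over the 42 (adjusted 0.0711). Without the 5 strains with arrays low or mixed in striatal genes these were -0.083 and -0.16 (permutation p = 0.719 and 0.503). Kcnj3 and Kcnj9, the 2 GIRK subunits above the filter, were at 0.35 in accumbens (permutation p = 0.11, adjusted 0.219; rho 0.56, adjusted 0.0443 over 12 and 0.0776 over 42) and 0.017 in cortex over the 22 strains.

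The other members were dim. Kcnj6, whose Kir3.2 forms GIRK channels with Kir3.1 or alone, had 5 probe sets. The brightest, 1425044_at, read 4.03 to 5.02 in cortex and 3.13 to 3.55 in accumbens, and it exceeded log2 5 on 1 array. The other Kcnj6 probe sets (1425707_a_at, 1451868_at, 1421581_at and 1450294_a_at) had means of 3.08 or less in both regions. Kcnj2 had 1 probe set (1450503_at), at 3.14 ± 0.04 and 3.05 ± 0.04 (SD, n = 27), and its strain means spanned 0.10. Such readings lie below the level of the filter and are taken as upper bounds. In a fit with no filter, 10 of the 11 dim probe sets were called by region (9 lower and 1 higher in accumbens, where 41.6% and 37.8% of all probe sets were called) and 0 by strain (8.5%). These calls are between readings below the level of the filter and are not read as differences between the regions.

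Kcnj16, the Kir5.1 partner of Kir4.1, rose above the filter level on few arrays. Probe set 1435094_at had a median of 4.05 in cortex and 3.69 in accumbens and a single value over log2 5, 6.51 in BALB/cByJ accumbens; NON/LtJ followed with 4.87. Its other probe set (1436163_at) was also highest in accumbens in BALB/cByJ, at 5.26. BALB/cByJ was thus highest in accumbens for Kcnj10 and both Kcnj16 probe sets. It was also highest there for the Kcnj9 probe sets 1450712_at (8.29) and 1428602_at (4.99, below log2 5). The same accumbens array was the lowest in medium spiny neuron genes (6.999) and the highest in astrocyte genes (9.32). Kcnj2 and Kcnj16 neighbour each other on chromosome 11, and with readings below the level of the filter no relation between them, or of either with another member, is given.

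Of 10 other inward rectifier and sulfonylurea receptor genes, 1 passed the filter. Abcc8, which encodes SUR1, the regulatory subunit of ATP-sensitive potassium channels, fell from 7.19 ± 0.18 to 5.89 ± 0.16 (SD, n = 27), 2.45-fold and in 27 of 27 strains (limma, adjusted p = 1.39e-20). Its channel partner Kcnj11 reached 5.74 in cortex and 4.44 in accumbens at most and did not pass the filter, nor did Kcnj1, Kcnj5, Kcnj8, Kcnj12, Kcnj13, Kcnj14, Kcnj15 or Abcc9.

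Receptors that open GIRK channels differed between the regions in both directions. Of 22 listed, 12 passed the filter, 4 were higher and 7 lower in accumbens (50% and 33.8% of all named genes; 40.3% and 42% after quantile normalization). Of these 11, 6 (Drd2, Oprk1, Grm2, Sstr2, Sstr3 and Htr1a) had a mean below log2 5 in at least 1 region and passed the filter mainly through the other, so the counts are a description; 2 higher and 3 lower had both means above it. The median difference was -0.89, and -0.16 with means below log2 5 set to that level, against 0.11 and 0.090 over all named genes. Drd2, the D2 dopamine receptor, was at least 10.8-fold higher in accumbens (8.43 ± 0.60, SD, n = 27). Oprk1, the kappa opioid receptor, was at least 1.39-fold higher. Grm2, a presynaptic glutamate receptor, was at least 4.29-fold lower, as was the somatostatin receptor Sstr3 at least 2.29-fold. Gabbr1, a subunit of the GABA-B receptor, was 1.21-fold higher in 26 of 27 strains and differed between strains (span 0.46, adjusted p = 0.0191). Grm3 did not pass between regions (9.11 and 9.10) but spanned 3.80 log2 units between strains, from 5.92 in RIIIS/J to 9.73 in C58/J (limma F test, adjusted p = 4.19e-10).

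Among G proteins and regulators of GIRK channels, 22 of 25 genes passed the filter, 12 higher and 9 lower in accumbens, near the shares of 50% and 33.8% over all named genes, with a median difference of 0.32. The gamma subunit gene Gng7 rose from 7.04 ± 0.70 to 11.32 ± 0.63 (SD, n = 27), 19.4-fold, and the beta subunit gene Gnb4 rose 4.75-fold. Gng2 fell 3.85-fold. Kctd8, an auxiliary subunit of GABA-B receptors, was at least 3.78-fold higher. Its cortex mean of 4.54 lay below log2 5 and it passed the filter mainly through accumbens, so its call is a description. With both means above log2 5 there were 11 higher and 9 lower. Rgs7, which speeds the closing of GIRK channels and lies 52 genes from Kcnj10, was 2.49-fold lower and differed between strains (6.05 in SM/J to 8.44 in A/J, adjusted p = 2.16e-04), with 1 of the 5 low-Kcnj9 strains among its 5 lowest. Gnb1 was lowest in C57BL/6J (9.07) and highest in BALB/cByJ (11.25; adjusted p = 2.34e-07).

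The scaffolds of Kir2 channels were all above the filter, 3 of 10 higher and 4 lower in accumbens (50% and 33.8% of all named genes), with a median difference of -0.091. Akap5, which anchors protein kinase A at synapses, rose 3.77-fold and Lin7c 1.66-fold, while Dlg4 (PSD-95) fell 1.43-fold and Apba1 1.93-fold. Lin7c also differed between strains, from 7.09 in CE/J to 8.40 in DBA/2J (adjusted p = 1.24e-04).

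Of 16 glial partners of Kir4.1, 13 passed the filter, 5 higher and 4 lower in accumbens (50% and 33.8% of all named genes), with a median difference of -0.047. Gjb6, the astrocytic connexin 30, fell 2.27-fold, Dmd, the dystrophin gene, 1.60-fold and the glutamate transporter gene Slc1a2 1.42-fold. Dtna, which encodes dystrobrevin alpha of the same membrane complex, rose 2.15-fold and Slc12a2 1.45-fold. Aqp4, the water channel that shares astrocyte endfeet with Kir4.1, was at 8.13 and 8.06 and did not pass (adjusted p = 0.394); it was named after its values were seen. Between strains, Slc1a2 (11.49 in CE/J to 12.59 in P/J, adjusted p = 1.25e-04) and Dtna (8.37 in A/J to 9.10 in NZW/LacJ, adjusted p = 0.00708) differed.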

How the data were processed

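One-colour oligonucleotide arrays of 29 prefrontal cortex and 27 nucleus accumbens pools were used, each of 3 male mice. The values deposited by the authors are linear intensity values per probe set, made with GCRMA per the submitters' processing notes; its version and the genome build are not given in the sources used here. The range of values differs between regions as it would after separate normalization. The median intensity was 9.94 to 10.43 on cortex and 9.66 to 10.14 on accumbens arrays; their number limits the precision. The 7 genes and all gene lists were chosen with earlier results of these data known.

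Of 45015 probe sets, 64 controls were left out; 34880 had 1 gene symbol, 923 several (not used for names) and 9148 none. Tests used log2 intensity without a pseudocount. Probe sets were kept if above log2 5 on at least 13 of 54 paired arrays, and list genes are given by the brightest one. limma 3.58.1 in R 4.3.3 fitted region and strain on all 16056 kept probe sets; the tests were a moderated t for region and a moderated F for strain, with Benjamini-Hochberg adjustment. Where a region mean lay below log2 5, the fold is a bound against that level. Both regions came from the same animals, per the design text, so strain is a block; 21 of 27 cortex arrays matched their own strain's accumbens array best. Relations across strains used Pearson and Spearman correlation with 100000 permutations (Python 3.11.15, scipy 1.17.1). All 18 member probe sets were named, and from each list up to 4 genes by region difference and 2 by strain span, the 5 most and 3 least like Kcnj9 and Kcnj10, and the neighbours past the strain threshold. Promoter sequences are RefSeq's (GRCm38.p6), found for 7 of 7 genes. The fits and permutation tests were checked on simulated data. Alternatives were other filters, scalings, variance models, covariates, thresholds and left-out strains.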

Additional observations from a re-analysis of the deposited data

How the results depend on the processing

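The brightest Kcnj3 and Kcnj9 probe sets stayed lower in accumbens, past the threshold, in every alternative in which they could be fitted. The other 3 probe sets of these genes passed the filter through cortex alone. Kcnj10 stayed past the strain threshold throughout. So did Kcnj9 (1450712_at), whose strain spread was known when the genes were chosen. Kcnj10 too was chosen with earlier results of these data known, so the passing of either is a description. Leaving out 1 strain at a time moved the Kcnj9 regional difference between -2.04 and -1.96, the Kcnj10 difference between -0.22 and -0.16, the Kcnj10 strain span between 1.53 and 1.98 (1.53 without BALB/cByJ), and the Kcnj4 difference between 0.29 and 0.48. The Kcnj10 regional difference reversed to 0.0696 with the astrocyte covariate and missed a threshold of 0.01 (-0.18). Without the strain block (pairing), Kcnj10 (-0.18, adjusted p = 0.185) and Kcnj4 (0.37, adjusted p = 0.066) lost their call, and no other member did. Kcnj4 also lost it with no filter (0.37), at a threshold of 0.01, after quantile normalization or centring (0.24 each), with the oligodendrocyte (0.25) or astrocyte (0.094) covariate, and without 9 strains (0.34). The strain span of Kcnj3 1421468_at (1.13, adjusted p = 0.0677) passed after centring (1.21), with the astrocyte covariate (1.13) and without BALB/cByJ (spans of 0.87 to 1.13 over left-out strains). The cause was not tested in any of these.

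Probe sets higher and lower in accumbens numbered 17003 and 18679 with no filter and 4293 and 2761 above log2 7 (1634 by strain), which test other numbers of probe sets. With the brightest probe set of each named gene and all kept probe sets without a single symbol (10684 together), 5451 were higher. At 0.01, 1873 differed by strain. The Kcnj9 with Kcnj10 correlation in cortex turned to -0.0109 without 5 strains and -0.0911 with the other Kcnj9 probe set, and in accumbens was 0.33 with the latter, whose accumbens readings were all below log2 5. The correlation of Kcnj10 between the regions was 0.46 without the 5 lowest Kcnj9 strains and 0.24 without BALB/cByJ too, both added after the data were seen. Weak correlations with Kcnj3 changed sign with its other probe sets or without 5 strains: with Kcnj4, -0.12 in cortex and -0.0696 in accumbens; with Kcnj9, -0.0795, -0.27, -0.39 and -0.37 in cortex and -0.12 in accumbens; with Kcnj10, -0.0574, -0.0176 and -0.20 in cortex. Depth here is signal over background: the 11 dim probe sets allow no statement about Kcnj2, Kcnj6 or Kcnj16 levels.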
